A study of Mus musculus with 43 samples.

Results

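The subject here is RNA in irradiated primary mouse intestinal organoids on day 11 of culture, 4 days after a 24 h exposure to the cytokine TGFB1 had ended. Organoids are small three-dimensional cultures of intestinal epithelium that grow from crypt cells and hold stem cells together with absorptive and secretory cells. Both groups came from wild-type C57BL/6 mice, and both received 4 Gy of ionising radiation on day 4. From day 6, one group was kept for 24 h in 2 ng/mL TGFB1 and the other in vehicle, and all were collected on day 11. Each group had 3 bulk RNA-seq libraries, so 6 of the 43 samples of the series are described, and both of these groups carry the irradiation. Set beside them are 6 libraries of irradiated organoids collected on day 7, when the same 24 h exposure or vehicle treatment ended. The 6 day 7 libraries of non-irradiated organoids are used for Isx and in 1 alternative fit of all 18 bulk RNA libraries. The labels do not say whether the 3 libraries of a group came from separate cultures or animals, so the p-values below measure only the spread between these libraries, which may be technical. FPKM are, by the usual definition, the fragments mapped to a gene, divided by its transcript length and by the library's mapped total. Of the 23951 genes listed, the 11479 with a mean of at least 1 FPKM over the 6 libraries were tested. Among the genes of the lists used below, Timp1 lay just outside that limit (mean 0.999 FPKM) and Alox5 just inside (1.00 FPKM).

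TGFB1 binds a pair of serine/threonine kinase receptors, which phosphorylate SMAD2 and SMAD3, and these enter the nucleus with SMAD4 and switch genes on and off. In intestinal epithelium the pathway is best known for halting the cell cycle and for changes in matrix and adhesion, and it induces its own inhibitors, such as SMAD7. After injury, intestinal epithelium passes through a repair state marked by Clu, Anxa1, Ly6a and other genes of fetal epithelium, a state in which YAP and TAZ, the coactivators of TEAD transcription factors at the end of the Hippo pathway, take part.

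The libraries of a group resembled each other closely (lowest correlation of log2 values within a group 0.980, highest between the groups 0.907), and none stood far apart. Summed FPKM were 510608 ± 34821 (SD, n = 3) in the vehicle and 461610 ± 13172 in the TGFB1 libraries, and a gene's SD was typically 8.24% of its mean in the vehicle and 5.36% in the TGFB1 libraries (medians over genes of 10 FPKM or more). FPKM hold no read counts, so the depth is unknown. The low values did not settle the relative depth: under 0.1 FPKM, the most frequent ratio of a gene's value to that in vehicle replicate 1 was 0.862 to 1.04, but only 14.4% to 21.1% of the genes lay within 0.05 log2 of it. The cells were epithelial by their markers: the 11 epithelial markers listed summed to 6223 to 7666 FPKM with vehicle and 7691 to 8522 FPKM with TGFB1. Such sums weigh the most abundant genes: of the 11, 2 were called higher and 5 lower, with a median log2 change of -0.19. Of 14 mesenchymal, 9 endothelial and 8 neural markers, none reached a mean of 1 FPKM, and the mesenchymal markers summed to 0.653 to 0.867 FPKM with vehicle and 1.27 to 2.22 FPKM with TGFB1. Of 12 immune markers 2 were tested. Their list summed to 7.12 to 10.9 FPKM with vehicle and 12.8 to 15.5 FPKM with TGFB1, and 4 of the 12 were listed at 0 in all 6 libraries. The immune markers above 1 FPKM were Lyz2 and Cd68. Lyz2, a lysozyme gene of myeloid cells, was at 1.76, 3.82 and 1.89 FPKM with vehicle and 7.14, 3.73 and 6.34 FPKM with TGFB1. Its log2 change was 0.96 ± 0.27 SE (adjusted p 0.016), a call lost without vehicle replicate 1 or 3 or TGFB1 replicate 1 or 3. Cd68, a lysosomal protein of macrophages, was not called in the main test (log2 change 0.28, adjusted p 0.121). It was called higher without TGFB1 replicate 3 (adjusted p 0.0499), with equal sums per library (0.0206) and with all 18 bulk RNA libraries in 1 fit (0.0458). The fit of all 18 called more genes in total than the main test. The part of Lyz2 and Cd68 in any result was not tested.

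At day 11 limma called 7335 of the 11479 genes (63.9%, Benjamini-Hochberg adjusted p under 0.05), 3713 higher with TGFB1 (32.3%) and 3622 lower (31.6%). The change reached 2-fold on the scale of log2(FPKM + 1) for 651 of the genes called higher (5.67% of those tested) and 923 of those called lower (8.04%). In 8040 genes (70.0%) the 3 vehicle values and the 3 TGFB1 values did not overlap. Genes named below were mostly chosen for large changes, and some by a rule that also required groups not to overlap. Remarks on their separation therefore describe them and are not added evidence. The median log2 change over all genes was 0.01. With each library scaled to the same summed FPKM, an alternative chosen after seeing the data, that median was 0.15 and the split of calls 4585 higher and 2802 lower. Changes below are differences of log2(FPKM + 1), which understate those of genes near 0 FPKM, and values with ± are mean ± SD of 3 libraries unless marked SE. Fewer cells of a type and less RNA per cell cannot be told apart in these bulk samples. Genes of the lists below passed the filter in many cases only through the group where they are high, so the counts describe the genes tested and not whole pathways.

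**Figure D1:**
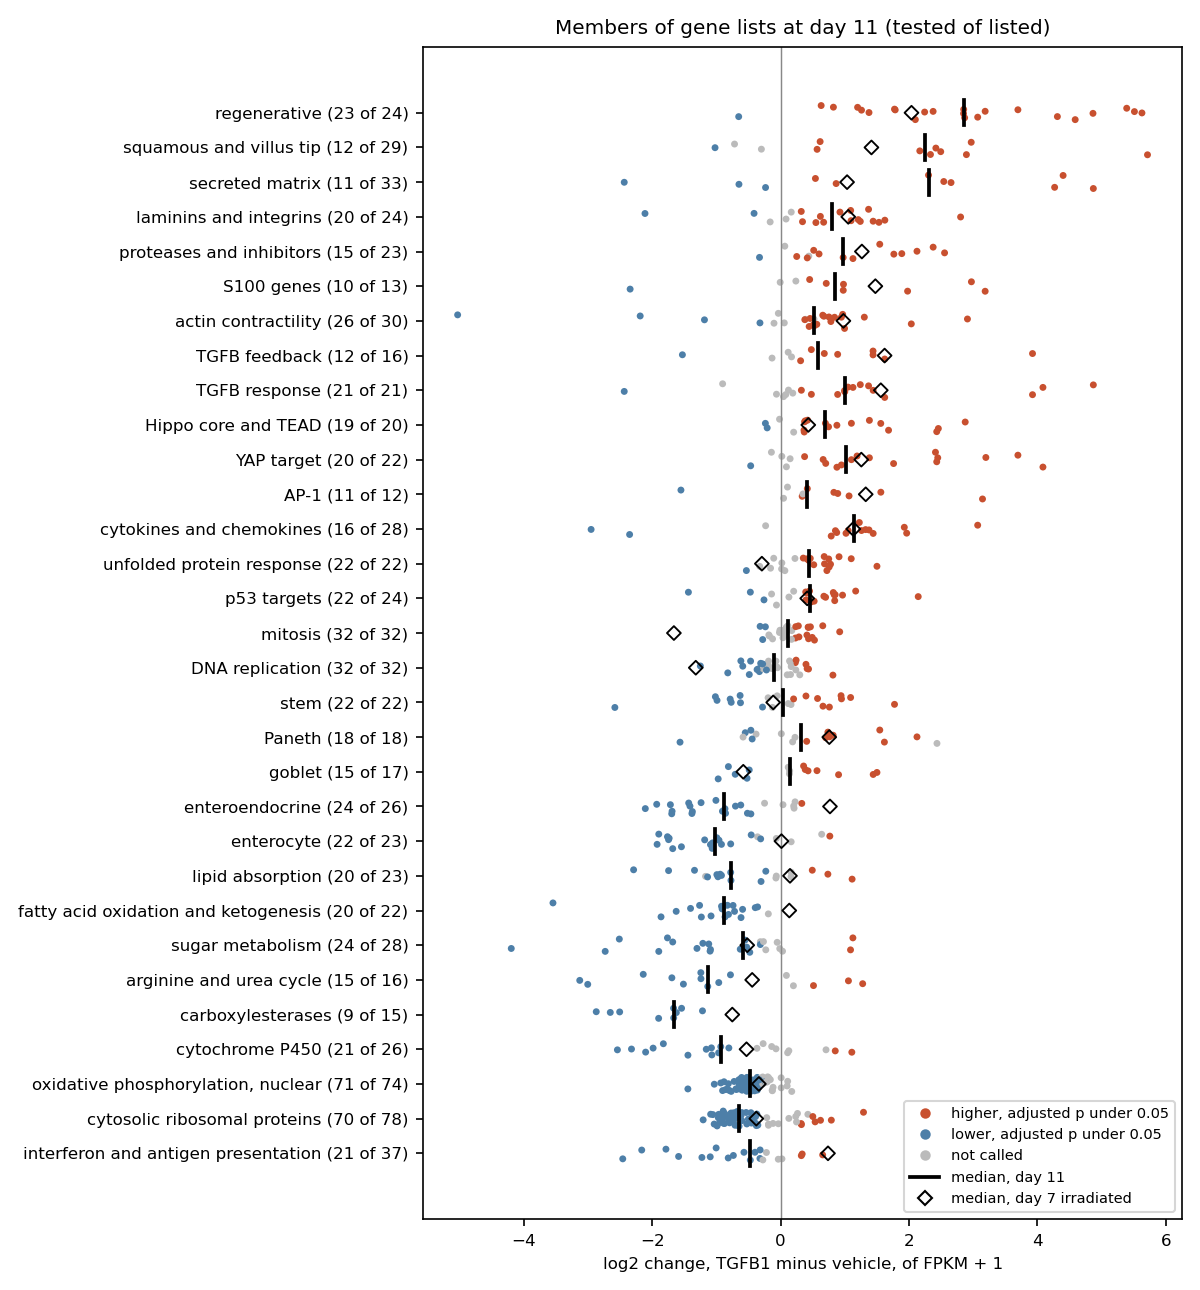
Log2 change with TGFB1 at day 11 (horizontal axis, FPKM + 1) of each tested member of 31 gene lists (rows, with the number tested of the number in the table), coloured by call, with the day 11 median as a bar and the median in irradiated organoids at day 7 as an open diamond. The repair list lies far to the right (median 2.85) and the carboxylesterases far to the left (median -1.67), while the mitosis list lies near 0 at day 11 and at -1.66 at day 7.

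The lists were chosen with earlier results of these data known, so a rank among them may follow in part from that choice. Genes of the repair state had the highest median of the 31 lists plotted. Of the 24 listed, 23 were tested, 22 were called higher and 1 lower (Ly6e, log2 change -0.65), with a median log2 change of 2.85 beside 0.01 for all genes. Clu, which encodes the secreted chaperone clusterin and marks revival stem cells, was at 72.1, 78.2 and 85.4 FPKM in the vehicle libraries and at 4352, 3563 and 3899.6 FPKM in the TGFB1 libraries (log2 change 5.63 ± 0.12 SE, adjusted p 2.18e-09). It was among the most abundant RNAs of the TGFB1 organoids, and its groups lay far apart. Anxa8, a calcium-dependent membrane-binding annexin, was at 0.85, 2.46 and 2.57 FPKM with vehicle and 125, 113 and 149.9 FPKM with TGFB1 (log2 change 5.51 ± 0.28 SE, adjusted p 1.27e-05). Anxa1, an annexin that dampens inflammation and is typical of fetal epithelium, was at 9.68, 10.9 and 11.3 FPKM with vehicle and 299, 250.03 and 287 FPKM with TGFB1 (log2 change 4.59 ± 0.09 SE, adjusted p 1.66e-09). All TGFB1 values of these 3 genes exceeded all vehicle values. This follows from the rule that named them, which took only genes whose groups did not overlap. Basp1, a membrane-bound protein of growing cells, rose from 1.69 ± 0.476 to 52.7 ± 11.5 FPKM, Msln, which encodes mesothelin, rose from 11.1 ± 2.38 to 155 ± 18.5 FPKM, and Ly6a, the surface protein Sca-1, rose from 47.2 ± 7.75 to 248 ± 31.1 FPKM. The smallest difference among the genes called higher was that of Ly6d (log2 change 0.63, adjusted p 0.0425), whose libraries overlapped (8.15, 12.2 and 14.9 FPKM with vehicle, 19.4, 21.6 and 14.4 FPKM with TGFB1). Its call was lost without TGFB1 replicate 1 or 2 or vehicle replicate 1 or 2.

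Keratins and squamous genes formed a related group. The squamous list had 12 tested members of 29 in the table, 9 called higher and 1 lower (the transglutaminase gene Tgm2), with a median of 2.25. Some of the higher members, such as Krt4, Lor and Tgm1, averaged under 1 FPKM with vehicle. They passed the filter only through the TGFB1 libraries, so the counts and the median describe only the tested genes. Krt4, a keratin of stratified epithelium, was at 0.332, 1.2 and 0.719 FPKM with vehicle and 81.9, 89.1 and 96.8 FPKM with TGFB1 (log2 change 5.71 ± 0.16 SE, adjusted p 4.28e-08). The cornified-envelope genes Lor (from 0.513 ± 0.21 to 11 ± 3.08 FPKM) and Tgm1, a crosslinking transglutaminase (from 0.147 ± 0.0913 to 7.61 ± 1.73 FPKM), rose from low levels, and Sprr1a, a small proline-rich envelope protein, rose from 111 ± 35.5 to 576 ± 54.8 FPKM. Krt7, a keratin of ductal epithelium, was far more abundant and rose from 339.6 ± 43 to 1605 ± 124 FPKM (log2 change 2.24 ± 0.13 SE, adjusted p 6.13e-07). Of the 4 keratins of simple intestinal epithelium, Krt19 rose from 1644 ± 302 to 2947 ± 58.4 FPKM and Krt20, a keratin of villus cells, had a log2 change of -0.46 (adjusted p 0.0482), a call lost without vehicle replicate 2 or 3 or when any 1 of the TGFB1 replicates was left out. Krt8 (adjusted p 0.0527) and Krt18 (adjusted p 0.351) did not pass the test, with log2 changes of 0.35 and 0.15, and both were called higher with quantile normalization and with equal sums per library. Krt8 was also called higher without vehicle replicate 3 (adjusted p 0.0465) and without the trend and robust settings of limma (0.0256). With all 18 bulk RNA libraries in 1 fit Krt8 was called higher at adjusted p 0.000837. That fit called 8534 genes, against 7335 in the main test. Calcium-binding S100 genes (10 tested, 7 higher, 1 lower, median 0.84) included S100a6 (from 114 ± 32.1 to 1024 ± 123 FPKM), S100a4 (from 0.554 ± 0.307 to 11.8 ± 5.77 FPKM) and S100a11 (from 1158 ± 285 to 4477 ± 385 FPKM). The lower member was S100g, the vitamin D dependent calcium carrier of enterocytes (from 311 ± 103 to 58.5 ± 3.76 FPKM).

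**Figure D2:**
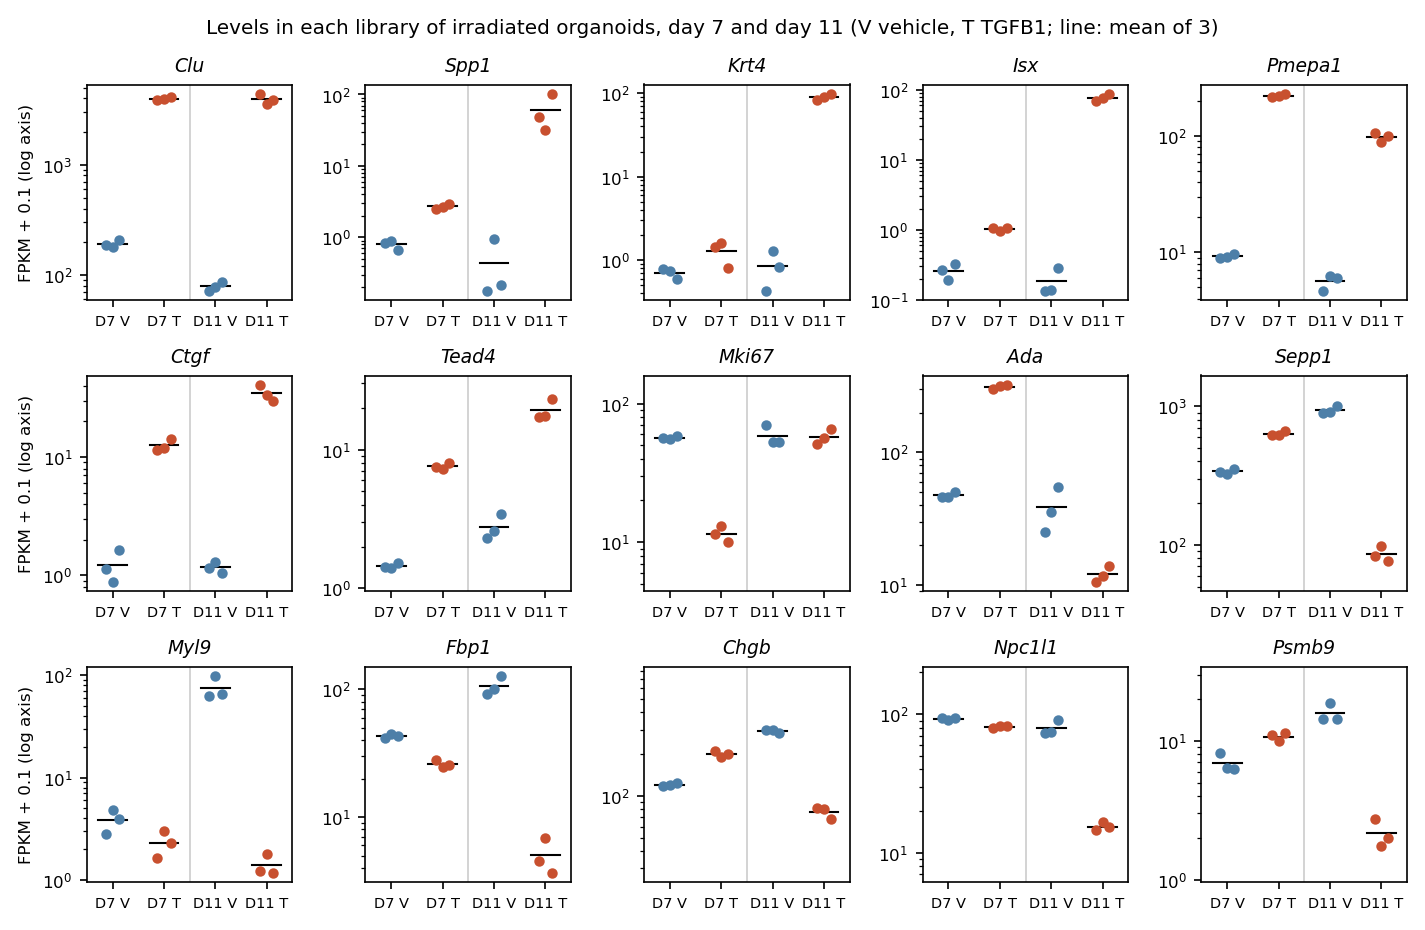
FPKM + 0.1 (log axis) of 15 genes in each library of irradiated organoids at day 7 and day 11 (V vehicle, blue; T TGFB1, red; black line, mean of 3). Clu and Pmepa1 are high with TGFB1 at both times, Krt4 and Isx only reach high values in the day 11 TGFB1 libraries, and Ada, Sepp1, Chgb and Psmb9 change sides between the times.

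The tested matrix, adhesion and protease genes were mostly higher. Of 33 secreted matrix genes 11 were tested, 8 higher and 3 lower, with a median of 2.30. Several of the higher ones, such as Fn1 and the collagens named below, averaged under 1 FPKM with vehicle. They passed the filter only through the TGFB1 libraries, so the counts and the median describe only the tested genes. Fn1, the adhesive matrix protein fibronectin, was at 0.155, 0.427 and 0.314 FPKM with vehicle and 50.0, 26.7 and 37.4 FPKM with TGFB1 (log2 change 4.87 ± 0.20 SE, adjusted p 3.14e-07). Thbs1, thrombospondin 1, which can activate latent TGFB1, was at 2.00, 2.19 and 1.35 FPKM with vehicle and 66.8, 44.8 and 50.8 FPKM with TGFB1 (log2 change 4.27 ± 0.16 SE, adjusted p 1.16e-07). Both genes were low in every vehicle library and far higher in every TGFB1 library. The basement membrane collagens Col4a1 (from 0.682 ± 0.158 to 7.35 ± 1.39 FPKM), Col4a2 (from 0.741 ± 0.21 to 10.0 ± 2.09 FPKM) and Col18a1 (from 0.475 ± 0.0559 to 7.66 ± 1.47 FPKM) rose as well. Tgfbi, a matrix protein named for its induction by TGFB, fell from 8.75 ± 0.732 to 0.804 ± 0.197 FPKM (log2 change -2.44 ± 0.12 SE, adjusted p 1.94e-07). Among 20 tested laminin, integrin and basement membrane genes, 15 were higher and 2 lower (median 0.80). Lama3, the alpha chain of an epithelial laminin, rose from 0.625 ± 0.11 to 10.4 ± 1.92 FPKM, and Itgb6, the integrin chain that activates latent TGFB1, rose from 5.46 ± 1.3 to 15.5 ± 1.22 FPKM. Hspg2, which encodes the basement membrane proteoglycan perlecan, fell from 13.4 ± 0.663 to 2.33 ± 0.197 FPKM. Of 15 tested proteases and inhibitors 12 were higher and 1 lower (median 0.97), among them Mmp7, the matrilysin of Paneth cells (from 50.3 ± 6.06 to 222 ± 24.4 FPKM), Plaur, the urokinase receptor (from 31.4 ± 4.91 to 118 ± 8.77 FPKM), its ligand Plau (from 0.315 ± 0.019 to 5.86 ± 0.847 FPKM), and Timp2, a metalloproteinase inhibitor (from 2.24 ± 0.201 to 18.2 ± 3.12 FPKM).

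Genes of the actin system were divided. Of 26 tested, 17 were higher and 4 lower (median 0.52). Flna, a filamin that crosslinks actin, rose from 17.7 ± 2.71 to 75.2 ± 8.2 FPKM, and Cald1, the actin-binding caldesmon, rose from 0.495 ± 0.175 to 10.3 ± 1.91 FPKM. Myl9, the regulatory light chain of non-muscle and smooth muscle myosin, had the largest fall of the rule for named genes: 62.1, 97.8 and 65.7 FPKM with vehicle and 1.13, 1.68 and 1.08 FPKM with TGFB1 (log2 change -5.03 ± 0.18 SE, adjusted p 1.69e-07). The skeletal actin gene Acta1 (from 177 ± 24.4 to 38.4 ± 8.38 FPKM) and the light chain kinase gene Mylk (from 9.62 ± 0.838 to 3.65 ± 0.0794 FPKM) fell too. In an epithelial to mesenchymal transition list, 6 of 11 tested genes were higher and 2 lower. Vim, the mesenchymal intermediate filament vimentin, fell from 5.91 ± 1.07 to 1.73 ± 0.459 FPKM. Cdh1, the epithelial cadherin, did not pass (log2 change 0.07, adjusted p 0.536) except with quantile normalization.

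The TGFB pathway itself was mixed. Among 10 tested ligands, receptors and SMADs of 20 listed, 4 were higher and 2 lower, and the largest rises were those of Smad2 (from 6.67 ± 0.486 to 9.65 ± 1.04 FPKM) and the type I receptor gene Tgfbr1 (from 6.61 ± 0.933 to 9.43 ± 0.594 FPKM, log2 change 0.46 ± 0.11 SE, adjusted p 0.00378). The activin receptor genes Acvr2b (from 4.25 ± 0.128 to 1.76 ± 0.300 FPKM) and Acvr1b (from 28.7 ± 2.81 to 20.1 ± 0.503 FPKM) fell. The type II receptor gene Tgfbr2 rose from 52.2 ± 2.22 to 69.3 ± 2.63 FPKM. Tgfb1 itself was at 12.3, 14.7 and 15.9 FPKM with vehicle and 14.6, 11.5 and 13.9 FPKM with TGFB1, values that overlapped (log2 change -0.09, adjusted p 0.486), whereas at the end of the exposure on day 7 it had risen from 3.43 ± 0.47 to 33.5 ± 0.591 FPKM (log2 change 2.97, difference of log2 changes -3.06 ± 0.15 SE, adjusted p 1.67e-09). Of 12 tested feedback genes 8 were higher and 1 lower, with a median of 0.58 beside 1.62 at day 7. Pmepa1, which sequesters SMADs, was at 4.58, 6.17 and 5.96 FPKM with vehicle and 107, 88.2 and 100.0 FPKM with TGFB1 (log2 change 3.92 ± 0.11 SE, adjusted p 1.65e-08). Skil, the SMAD corepressor SnoN, rose from 2.17 ± 0.135 to 8.74 ± 0.481 FPKM, Smurf1, a ubiquitin ligase of the pathway, from 7.63 ± 0.458 to 22.5 ± 2.32 FPKM, and Smad7 from 2.62 ± 0.363 to 5.7 ± 0.601 FPKM (log2 change 0.89 ± 0.11 SE, adjusted p 9.25e-05). Tgif2, a homeobox corepressor of SMADs, was the member that fell (from 23.8 ± 2.17 to 7.71 ± 1.81 FPKM). The day 11 change of Smad7 was smaller than the day 7 change (difference of log2 changes -1.22 ± 0.12 SE, adjusted p 1.4e-06). Of 21 tested response genes 14 were higher and 1 lower, the fall being that of Tgfbi, and the median was 1.00 beside 1.56 at day 7. Among BMP genes (13 tested, 5 higher, 5 lower), Bmp4 rose from 0.0846 ± 0.0278 to 2.3 ± 0.399 FPKM, while Bmp3, a BMP family antagonist, fell from 40.8 ± 5.34 to 3.57 ± 0.251 FPKM and Bmp7 fell from 18.1 ± 1.61 to 4.25 ± 0.805 FPKM.

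Hippo and TEAD genes were higher as a group. Of 19 tested genes of the Hippo core, its coactivators and the TEAD factors, 15 were higher and 2 lower (median 0.70). Tead4, one of the 4 TEAD factors, was at 2.21, 2.47 and 3.33 FPKM with vehicle and 17.1, 17.3 and 23 FPKM with TGFB1 (log2 change 2.46 ± 0.14 SE, adjusted p 6.01e-07). Tead2 rose from 12.6 ± 1.29 to 42.7 ± 5.36 FPKM, Wwtr1, which encodes TAZ, rose from 4.32 ± 0.167 to 14.7 ± 0.647 FPKM, and Yap1 rose less (from 33.2 ± 1.26 to 43.2 ± 1.45 FPKM, log2 change 0.37). Vgll3, a TEAD cofactor, was at 0.0694, 0.0795 and 0.284 FPKM with vehicle and 6.81, 6.23 and 9.36 FPKM with TGFB1, so that the groups did not overlap. Of 20 tested YAP targets, some of which also stand in the lists above, 15 were higher and 1 lower (median 1.02). Ctgf, a matricellular growth factor modulator, was at 1.06, 1.21 and 0.939 FPKM with vehicle and 40.3, 33.1 and 29.7 FPKM with TGFB1 (log2 change 4.09 ± 0.12 SE, adjusted p 1.65e-08). Ankrd1, an ankyrin repeat cofactor, was at 0.489, 0.449 and 1.18 FPKM with vehicle and 16.5, 13.2 and 13.6 FPKM with TGFB1 (log2 change 3.20 ± 0.16 SE, adjusted p 2.77e-07), and Cyr61, a matricellular relative of Ctgf, at 7.94, 11.5 and 10.0 FPKM with vehicle and 37.8, 31.2 and 37.1 FPKM with TGFB1 (log2 change 1.76 ± 0.12 SE, adjusted p 2.09e-06). In all 3 genes the groups were well separated. Ajuba, a LIM protein that restrains the LATS kinases, rose from 10.2 ± 1.15 to 60.2 ± 5.38 FPKM, and Ptpn14, a phosphatase that restrains YAP, rose from 0.941 ± 0.189 to 9.33 ± 0.956 FPKM.

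TEAD factors bind the letters GGAATG, or CATTCC on the other strand. RefSeq promoter windows from 250 bases before to 50 bases after a start (build GRCm38.p6) were searched on both strands, and a gene was counted if any of its listed starts held the letters. They stood in 16.6% of the 27025 genes with a window, in 14.4% of the 9207 tested genes with one, in 20.6% of 506 genes called at least 2-fold higher and in 18.8% of 728 called at least 2-fold lower. Of the 15 YAP targets called higher, 10 had a window and 7 of these held the letters, in a list drawn up from known targets. Of 14 repair genes with a window 3 held them. The letters TGANTCA, bound by AP-1, stood in 6.27% of the tested genes with a window, in 12.1% of those called at least 2-fold higher and in 8.24% of those called at least 2-fold lower. Promoters are shown for the YAP targets Ankrd1 and Cyr61 (Ccn1 in RefSeq), for the repair gene Anxa1 and for Isx, a gene described below, with the TEAD letters in capitals.
Ankrd1, chr19:36119795-36120094, minus strand: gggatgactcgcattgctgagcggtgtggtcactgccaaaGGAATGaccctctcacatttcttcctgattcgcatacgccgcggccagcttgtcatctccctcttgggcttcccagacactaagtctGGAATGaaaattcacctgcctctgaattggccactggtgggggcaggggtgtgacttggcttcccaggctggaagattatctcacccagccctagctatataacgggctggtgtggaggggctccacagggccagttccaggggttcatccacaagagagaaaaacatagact
Cyr61, chr3:145649936-145650235, minus strand: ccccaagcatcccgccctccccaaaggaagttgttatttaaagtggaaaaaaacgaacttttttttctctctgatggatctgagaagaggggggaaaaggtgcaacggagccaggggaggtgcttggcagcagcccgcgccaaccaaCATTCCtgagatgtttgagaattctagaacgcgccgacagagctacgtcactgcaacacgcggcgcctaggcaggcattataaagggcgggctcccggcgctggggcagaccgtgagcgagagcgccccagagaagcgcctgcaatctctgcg
Anxa1, chr19:20390622-20390921, minus strand: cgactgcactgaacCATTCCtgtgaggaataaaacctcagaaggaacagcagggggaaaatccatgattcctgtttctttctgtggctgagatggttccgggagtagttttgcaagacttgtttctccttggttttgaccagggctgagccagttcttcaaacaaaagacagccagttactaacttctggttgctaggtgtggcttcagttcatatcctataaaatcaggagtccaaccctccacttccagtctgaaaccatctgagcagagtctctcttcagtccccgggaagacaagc
Isx, chr8:74872924-74873223, plus strand: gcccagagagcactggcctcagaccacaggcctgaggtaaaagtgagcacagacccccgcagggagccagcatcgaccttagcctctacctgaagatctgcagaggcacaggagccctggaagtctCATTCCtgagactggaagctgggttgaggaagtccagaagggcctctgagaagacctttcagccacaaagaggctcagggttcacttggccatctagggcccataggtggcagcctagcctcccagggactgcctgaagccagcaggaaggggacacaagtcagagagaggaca
Ankrd1 holds the letters at 210 and 123 bases before its start, Cyr61 at 103, Anxa1 at 236 and Isx at 124. These are matches of letters and not measured sites.

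AP-1 factors, the dimers of FOS and JUN proteins, were partly higher (11 tested, 7 higher, 1 lower, median 0.42 beside 1.33 at day 7). Fosl1, which encodes FRA1, was at 1.03, 1.19 and 1.26 FPKM with vehicle and 19.6, 17.7 and 17.1 FPKM with TGFB1 (log2 change 3.14 ± 0.10 SE, adjusted p 1.9e-08). Jun rose from 20.5 ± 1.37 to 62.4 ± 6.42 FPKM and Fos from 13.3 ± 1.44 to 28.9 ± 2.18 FPKM. The lower member was Bach1, a repressor of antioxidant genes (30.6, 26.2 and 27.4 FPKM with vehicle, 9.17, 8.61 and 8.88 FPKM with TGFB1, log2 change -1.55 ± 0.08 SE, adjusted p 2.86e-07), which at day 7 had risen from 15.1 ± 0.222 to 19.9 ± 1.13 FPKM (difference of log2 changes -1.93 ± 0.09 SE, adjusted p 1.59e-09). Immediate early and heat shock genes, which can also rise when tissue is handled, were higher in 9 of 14 tested cases and lower in 1 (median 0.89), among them Hspa1b, an inducible HSP70 gene (from 5.46 ± 1.55 to 39 ± 14.5 FPKM). Their part in the other results was not tested.

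Some genes had a higher TGFB1 effect at day 11 than at day 7 by the test of the difference between the effects, most of them through a larger rise. Isx, the intestinal homeobox factor that represses carotenoid uptake and conversion, was at 0.0355, 0.0366 and 0.185 FPKM with vehicle and 68.5, 76.7 and 86.3 FPKM with TGFB1 at day 11 (log2 change 6.17 ± 0.11 SE, adjusted p 8.66e-10). At day 7 it had gone from 0.161 ± 0.0659 to 0.93 ± 0.0674 FPKM, under the filter, and the difference of the effects was 5.43 ± 0.14 SE, adjusted p 1.88e-11. Krt4 (difference 5.29 ± 0.24 SE, adjusted p 1.6e-09) was also below the filter at day 7 (from 0.608 ± 0.0981 to 1.18 ± 0.427 FPKM). Efemp1, the extracellular matrix protein fibulin 3, was at 0.103, 0.0425 and 0.0432 FPKM with vehicle and 20.9, 21 and 22.4 FPKM with TGFB1 at day 11, and went from 0.106 ± 0.0207 to 0.121 ± 0.0534 FPKM at day 7 (difference 4.38 ± 0.12 SE, adjusted p 1.88e-11). In irradiated organoids, the group means of Isx and Efemp1 stayed under 1 FPKM in all groups but the day 11 TGFB1 group. In organoids of day 7 that were not irradiated, Isx was at 0.343, 0.219 and 0.312 FPKM with vehicle and 2.85, 3.07 and 2.29 FPKM with TGFB1 (log2 change 1.53 ± 0.10 SE, adjusted p 1.76e-07). Spp1, the secreted phosphoprotein osteopontin, was at 0.0801, 0.838 and 0.113 FPKM with vehicle and 48.4, 31.6 and 100.4 FPKM with TGFB1 (log2 change 5.39 ± 0.50 SE, adjusted p 0.00056), and its TGFB1 libraries ranged widely but all lay above the vehicle libraries. Its day 7 change was from 0.699 ± 0.125 to 2.62 ± 0.204 FPKM (difference 4.30 ± 0.50 SE, adjusted p 4.21e-05). Ly6a had risen less at day 7 (from 29 ± 0.934 to 49.5 ± 3.82 FPKM, difference 1.63 ± 0.16 SE, adjusted p 1.13e-06). Gpx2, an epithelial glutathione peroxidase, was at 286, 378 and 342 FPKM with vehicle and 1803, 1755 and 2069 FPKM with TGFB1 (log2 change 2.49 ± 0.14 SE, adjusted p 4.46e-07), whereas at day 7 it had fallen slightly, from 917 ± 18.8 to 818 ± 10.5 FPKM (difference 2.65 ± 0.14 SE, adjusted p 3.75e-09). Rbp7, a retinol-binding protein, did not rise at day 11, and its difference was 3.76 ± 0.22 SE, adjusted p 9.35e-09: it had fallen from 28.8 ± 2.56 to 0.616 ± 0.196 FPKM at day 7 and was at 2.5, 3.85 and 4.88 FPKM with vehicle and 2.19, 2.61 and 2.41 FPKM with TGFB1 at day 11, where its groups overlapped and the call was lost without vehicle replicate 2 or 3 or when any 1 of the TGFB1 replicates was left out.

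Retinoid genes, to which Isx and Rbp7 belong, were split. Of 19 tested 7 were higher and 10 lower, and all 7 of the higher genes and 8 of the lower ones passed 2-fold. Higher were Rdh10, which oxidises retinol to retinal (from 38.9 ± 1.72 to 206 ± 18 FPKM), Aldh1a3, which makes retinoic acid (from 0.529 ± 0.0489 to 10.9 ± 2.14 FPKM), and the retinol transporter gene Stra6, which was at 0.0672, 0 and 0.0344 FPKM with vehicle and 7.45, 4.44 and 4.89 FPKM with TGFB1. Lower were the retinal reductase gene Dhrs3 (from 95.5 ± 12.2 to 22.6 ± 2.9 FPKM), the retinol dehydrogenase gene Rdh7 (from 28.8 ± 6.33 to 5.31 ± 0.588 FPKM) and Bcmo1, the carotenoid-cleaving enzyme and a known target of ISX repression, at 5.51, 6.03 and 16.3 FPKM with vehicle and 1.48, 1.42 and 1.37 FPKM with TGFB1 (log2 change -1.93 ± 0.38 SE, adjusted p 0.00534). Scarb1, a lipid and carotenoid receptor that ISX is also known to repress, fell from 90.9 ± 11.1 to 40.6 ± 2.51 FPKM. Whether the rise of Isx had a part in either fall was not tested. The vehicle libraries of Bcmo1 differed from each other, and none came down to the TGFB1 values.

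The absorptive programs were lower. Of 22 tested enterocyte genes 17 were lower and 1 higher, with a median of -1.03 beside 0.01 at day 7. The brush border genes Dpp4, a dipeptidyl peptidase (from 21.4 ± 1.27 to 5.75 ± 0.937 FPKM), and Slc5a1, the sodium glucose transporter SGLT1 (from 183 ± 63 to 51.4 ± 2.74 FPKM), fell. Fabp1, the liver fatty acid binding protein, was at 622, 885 and 1307 FPKM with vehicle and 427, 429.9 and 494 FPKM with TGFB1 (log2 change -0.99 ± 0.24 SE, adjusted p 0.00562). Its vehicle libraries spread widely, and the lowest of them stood above the highest TGFB1 library. Apoa1 (adjusted p 0.87), Apoa4 (adjusted p 0.646) and Alpi, intestinal alkaline phosphatase (adjusted p 0.354), did not pass, with log2 changes of -0.07, 0.16 and -0.36. Without vehicle replicate 3, Apoa4 was called higher (0.48, adjusted p 0.0224), and without vehicle replicate 1 its value was -0.0813. In lipid absorption, 12 of 20 tested genes were lower and 3 higher (median -0.78). Npc1l1, the cholesterol importer of the brush border, was at 73.5, 74 and 91.1 FPKM with vehicle and 14.4, 16.5 and 15.2 FPKM with TGFB1 (log2 change -2.29 ± 0.10 SE, adjusted p 9.35e-08). Apoc3, an apolipoprotein of triglyceride-rich particles, fell from 149 ± 74.1 to 40.4 ± 3.81 FPKM, while Apob, their structural protein, rose from 51.7 ± 10.1 to 86.3 ± 14.6 FPKM. Cholesterol synthesis genes were mostly not called (21 tested, 3 higher, 3 lower).

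Fatty acid oxidation and ketogenesis was lower as a list: 19 of 20 tested genes were lower, with a median of -0.88 beside 0.13 at day 7. Hadh, a beta-oxidation dehydrogenase, was at 434, 493 and 538 FPKM with vehicle and 132, 143 and 124 FPKM with TGFB1 (log2 change -1.86 ± 0.11 SE, adjusted p 6.01e-07). Its groups were separated by a wide gap. Ehhadh and Acaa1b, of peroxisomal oxidation, fell from 38.8 ± 3.62 to 14 ± 0.916 FPKM and from 9.26 ± 3.78 to 2.21 ± 0.467 FPKM, and Ppara, the nuclear receptor that drives such genes, fell from 6.8 ± 0.467 to 3.15 ± 0.36 FPKM. The exception was Bdh1, which interconverts ketone bodies (log2 change -0.19, adjusted p 0.104). Bdh1 was called lower without vehicle replicate 1 (-0.29, adjusted p 0.00458) and with all 18 bulk RNA libraries in 1 fit (adjusted p 0.00897). The fit of all 18 called more genes in total than the main test. By the test of the difference between the effects, 19 of 20 tested genes of the list had a lower effect at day 11 than at day 7, beside 33.0% of all genes tested.

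Sugar and amino acid metabolism held several of the largest falls. Fbp1, the fructose bisphosphatase of gluconeogenesis, was at 91.4, 100 and 126 FPKM with vehicle and 4.45, 6.7 and 3.58 FPKM with TGFB1 (log2 change -4.20 ± 0.20 SE, adjusted p 1.99e-06). In its list 16 of 24 tested genes were lower and 2 higher (median -0.59 beside -0.52 at day 7). The fructose pathway gene Khk, ketohexokinase (from 248 ± 49.3 to 42 ± 1.85 FPKM), and the fructose carrier gene Slc2a5 (from 22.9 ± 5.04 to 10.1 ± 1.28 FPKM) fell. The higher genes were Hk2, a hexokinase (from 10.5 ± 1.3 to 23.5 ± 3.8 FPKM), and Slc2a1, the basal glucose transporter (from 38.7 ± 16.9 to 81.5 ± 15.8 FPKM), whose call was lost without vehicle replicate 2 or when any 1 of the TGFB1 replicates was left out. In arginine metabolism 10 of 15 tested genes were lower and 3 higher (median -1.14 beside -0.44 at day 7). Otc, the urea cycle enzyme of mitochondria, was at 59.2, 53.2 and 60.6 FPKM with vehicle and 6.68, 6.14 and 4.46 FPKM with TGFB1 (log2 change -3.13 ± 0.12 SE, adjusted p 6.79e-08). Cps1, which makes its substrate, fell from 284 ± 36.8 to 87.2 ± 13.9 FPKM, Oat, ornithine aminotransferase, from 899 ± 39.2 to 204 ± 25.2 FPKM, and Gamt, the last enzyme of creatine synthesis, from 31 ± 4.05 to 3.01 ± 0.686 FPKM. Arg1, arginase 1, rose from 0.356 ± 0.0548 to 1.82 ± 0.195 FPKM, and so did Sat1, which breaks down polyamines (from 44.4 ± 7.35 to 108 ± 8.11 FPKM).

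Detoxification genes were lower as well. All 9 tested carboxylesterase genes of 15 listed were at least 2-fold lower (median -1.67 beside -0.75 at day 7). Examples were Ces1d (from 39 ± 5.17 to 4.43 ± 0.241 FPKM) and Ces2e (from 268 ± 22.3 to 46.2 ± 1.73 FPKM). Of 26 glutathione transferase genes 16 were lower and 6 higher (median -0.61 beside -0.31 at day 7), and Gstt1 fell from 178 ± 21.2 to 31.1 ± 2.48 FPKM. Of 21 tested cytochrome P450 genes 12 were lower and 2 higher (median -0.93 beside -0.53 at day 7), Cyp2c55 falling from 102 ± 14.2 to 16.7 ± 3.79 FPKM. These families hold near-identical copies whose reads the counting could split, so single members are uncertain. Sepp1, the selenium carrier selenoprotein P, was at 900.5, 904 and 997 FPKM with vehicle and 82.9, 97.9 and 77.1 FPKM with TGFB1 (log2 change -3.43 ± 0.11 SE, adjusted p 2.82e-08). At day 7 it had risen from 339 ± 12.1 to 632 ± 23.4 FPKM, and the difference was -4.33 ± 0.12 SE, adjusted p 2.66e-11. The day 11 groups of Sepp1 lay far apart, with little spread inside either.

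**Figure D3:**
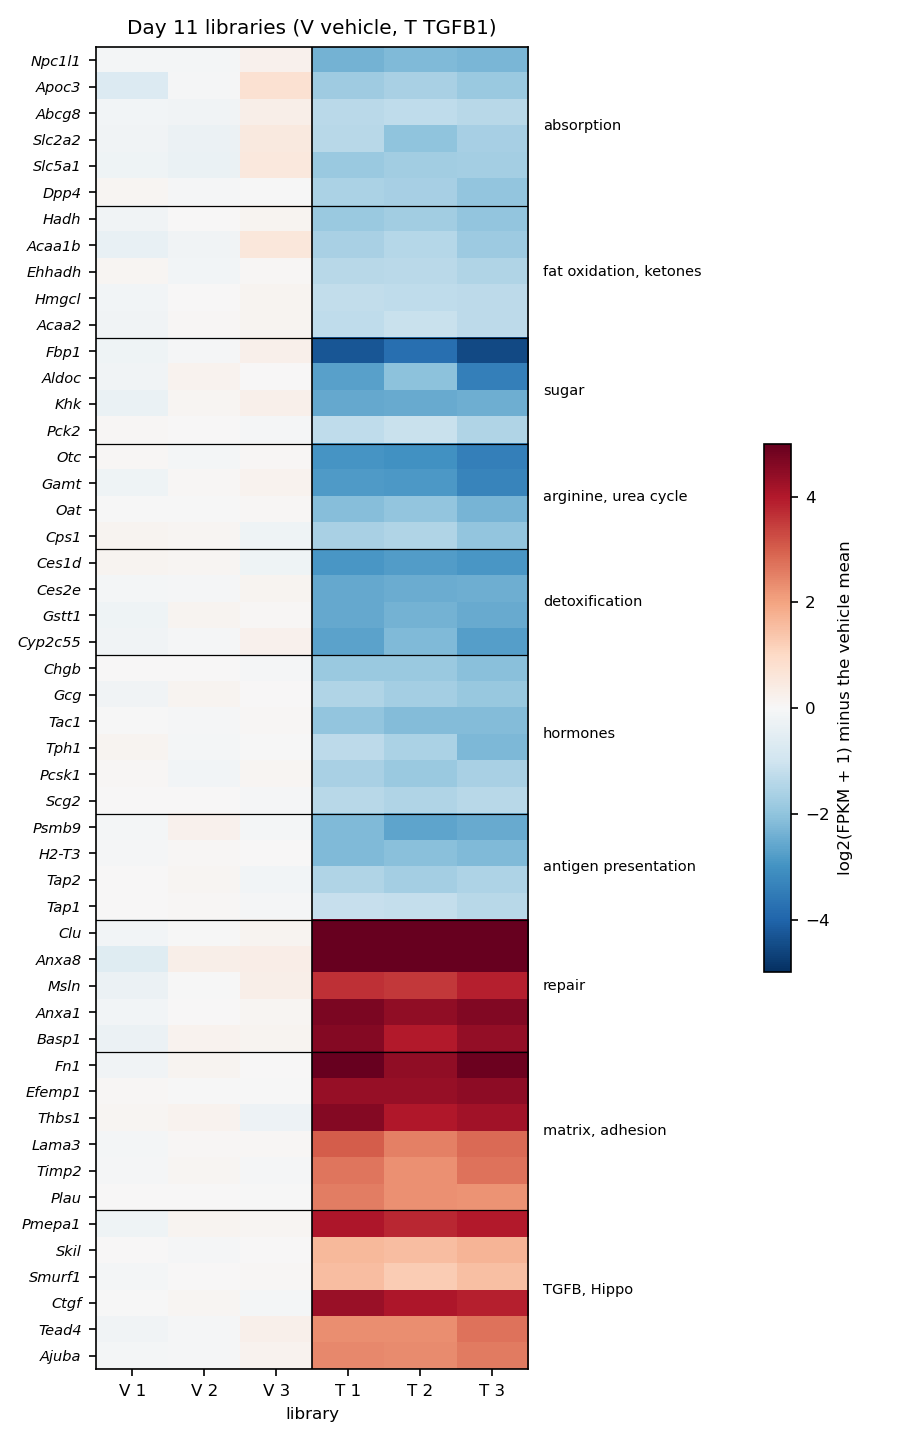
Log2(FPKM + 1) minus the vehicle mean in each of the 6 day 11 libraries (columns, V vehicle and T TGFB1) for 50 genes in 10 groups (rows). Each gene has the same direction in all 3 TGFB1 libraries. The genes were chosen with results of these data known, so this shared direction follows from the choice. Members that went the other way from their group, such as Tgfbi, Hspg2, Tgif2 and Apob, are not drawn. The colour scale ends at 5, which Clu (log2 change 5.63) and Anxa8 (5.51) exceed.

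Nuclear regulators of intestinal identity fell in 12 of 19 tested cases and rose in 4 (median -0.60). Hnf4a, a nuclear receptor of enterocyte differentiation, fell from 361 ± 6.98 to 257 ± 21.3 FPKM, its relative Hnf4g fell from 48 ± 5.24 to 28.2 ± 1.37 FPKM, Maf, a factor of villus enterocytes, from 10.6 ± 2.95 to 1.78 ± 0.168 FPKM, and Ppargc1a, a coactivator of mitochondrial genes, from 5.22 ± 1.15 to 1.12 ± 0.19 FPKM. The largest change in the list was the rise of Isx, described above (log2 change 6.17). Gata5, a GATA factor, rose from 20.9 ± 1.29 to 56.3 ± 1.75 FPKM. Cdx2, the caudal homeobox factor of intestine, went from 138 ± 16.1 to 106 ± 17 FPKM (adjusted p 0.0234), a call lost without vehicle replicate 2 or 3 or TGFB1 replicate 3.

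Genes of hormone-producing cells were mostly lower. Of 24 tested enteroendocrine genes 18 were lower and 1 higher, with a median of -0.89 beside 0.77 at day 7. Chgb, a granule protein of these cells, was at 298, 299 and 286 FPKM with vehicle and 81.7, 80.2 and 68.1 FPKM with TGFB1 (log2 change -1.93 ± 0.09 SE, adjusted p 2.19e-07). Gcg, the precursor of GLP-1, was at 244, 297 and 279 FPKM with vehicle and 95.6, 82.9 and 72.9 FPKM with TGFB1 (log2 change -1.70 ± 0.12 SE, adjusted p 1.73e-06). The groups did not overlap in either gene. Tac1, the precursor of substance P, fell from 37 ± 1.16 to 7.83 ± 0.658 FPKM, and Tph1, the enzyme of serotonin synthesis, fell from 10.4 ± 0.969 to 2.58 ± 1.11 FPKM. Cck, the cholecystokinin gene, fell from 330.1 ± 61.6 to 201 ± 30.1 FPKM, and Sst, the somatostatin gene, fell from 284 ± 37.4 to 139.7 ± 8.25 FPKM. At day 7 Chgb had risen from 119.9 ± 2.99 to 201 ± 9.13 FPKM (difference -2.67 ± 0.10 SE, adjusted p 3.91e-10) and Gcg from 123 ± 7.99 to 301 ± 16.1 FPKM (difference -2.99 ± 0.14 SE, adjusted p 1.41e-09). Tested across the list, 23 of 25 genes had a lower effect at day 11 than at day 7 and 1 a higher one, beside 33.0% and 31.5% of all 11456 genes tested.

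Paneth, goblet and tuft genes were mixed. Of 18 tested Paneth genes 8 were higher and 4 lower. Lyz1, the lysozyme of Paneth cells, rose from 1066 ± 134 to 1818 ± 324 FPKM (log2 change 0.76 ± 0.16 SE, adjusted p 0.00257), and Nupr1, a stress-response factor, rose from 84.9 ± 9.52 to 265 ± 55.4 FPKM. Reg3g, an antimicrobial lectin, fell from 365 ± 158 to 117 ± 21.2 FPKM. The goblet list had 7 of 15 tested genes higher and 5 lower. Spdef, the goblet cell transcription factor, rose from 7.63 ± 1.03 to 22.5 ± 3.87 FPKM, and Ern2, an unfolded protein sensor of mucous cells, rose from 3.77 ± 1.38 to 12.1 ± 0.733 FPKM, while the mucin gene Muc2 fell from 27.6 ± 4.01 to 18.8 ± 1.76 FPKM. Of 10 tested tuft cell genes 3 were higher and 3 lower, and Ptgs1, the cyclooxygenase of these cells, rose from 1.34 ± 0.352 to 8.01 ± 1.64 FPKM.

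Stem cell genes did not move as one: 9 of 22 were higher and 8 lower, with a median of 0.03. Lgr5, the R-spondin receptor of crypt base stem cells, was at 68.5, 56.5 and 52.1 FPKM with vehicle and 31.2, 32.2 and 24.2 FPKM with TGFB1 (log2 change -0.99 ± 0.13 SE, adjusted p 0.000109). Olfm4, another marker of these cells, was at 288, 252 and 175 FPKM with vehicle and 510.1, 449 and 392 FPKM with TGFB1 (log2 change 0.94 ± 0.18 SE, adjusted p 0.00137), so the 2 markers moved in opposite directions. At day 7 Olfm4 had fallen from 666 ± 16.2 to 244 ± 29.7 FPKM (difference 2.39 ± 0.22 SE, adjusted p 7.74e-07). Cd44, a Wnt target and hyaluronan receptor, rose from 21.3 ± 2.62 to 75.3 ± 8.42 FPKM, and Sox9 and Prom1, of crypt progenitors, rose from 29.9 ± 1.43 to 51.4 ± 4.85 FPKM and from 66.5 ± 6.56 to 129 ± 3.29 FPKM. Aqp4, a water channel of the crypt, fell from 22.5 ± 4.57 to 2.91 ± 0.586 FPKM.

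Cell cycle genes were near their vehicle level at day 11. Mki67, the proliferation antigen, was at 70.3, 52.4 and 53.1 FPKM with vehicle and 51.3, 56.2 and 65.2 FPKM with TGFB1 (log2 change -0.02 ± 0.13 SE, adjusted p 0.903), and the groups overlapped. The sign of so small a value turned with the scaling. Of 32 mitosis genes 13 were higher and 3 lower (median 0.11), beside 32.3% higher and 31.6% lower of all genes tested. Kif23, a kinesin of cytokinesis, rose from 25.6 ± 1.21 to 49.2 ± 1.64 FPKM, and Ect2, a cytokinesis exchange factor, from 27 ± 2.87 to 43.1 ± 3.8 FPKM. Of 32 DNA replication genes 6 were higher and 12 lower (median -0.11), beside the same 32.3% and 31.6% of all genes. With equal sums per library the replication counts became 11 and 6. Pold1, the catalytic subunit of DNA polymerase delta, fell from 57.6 ± 3.49 to 23.6 ± 1.7 FPKM, and Cdt1, a licensing factor, from 71.2 ± 6.97 to 39.7 ± 0.769 FPKM. At day 7 all 32 genes of each list had been lower (39.7% of all genes were), with medians of -1.66 and -1.32. The effect at day 11 was higher than at day 7 for 32 of 32 mitosis and 31 of 32 replication genes, beside 31.5% of all genes tested. For Mki67 the difference was 2.21 ± 0.17 SE, adjusted p 1.21e-07. Ccne1, the G1/S cyclin E1, was at 5.99, 7.61 and 6.31 FPKM with vehicle and 16, 16 and 19.9 FPKM with TGFB1 at day 11 and had fallen from 15 ± 0.671 to 5.00 ± 0.274 FPKM at day 7 (difference 2.68 ± 0.13 SE, adjusted p 2.14e-09). Ccnd1, cyclin D1, rose from 84.3 ± 4.95 to 194 ± 24.4 FPKM at day 11.

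**Figure D4:**
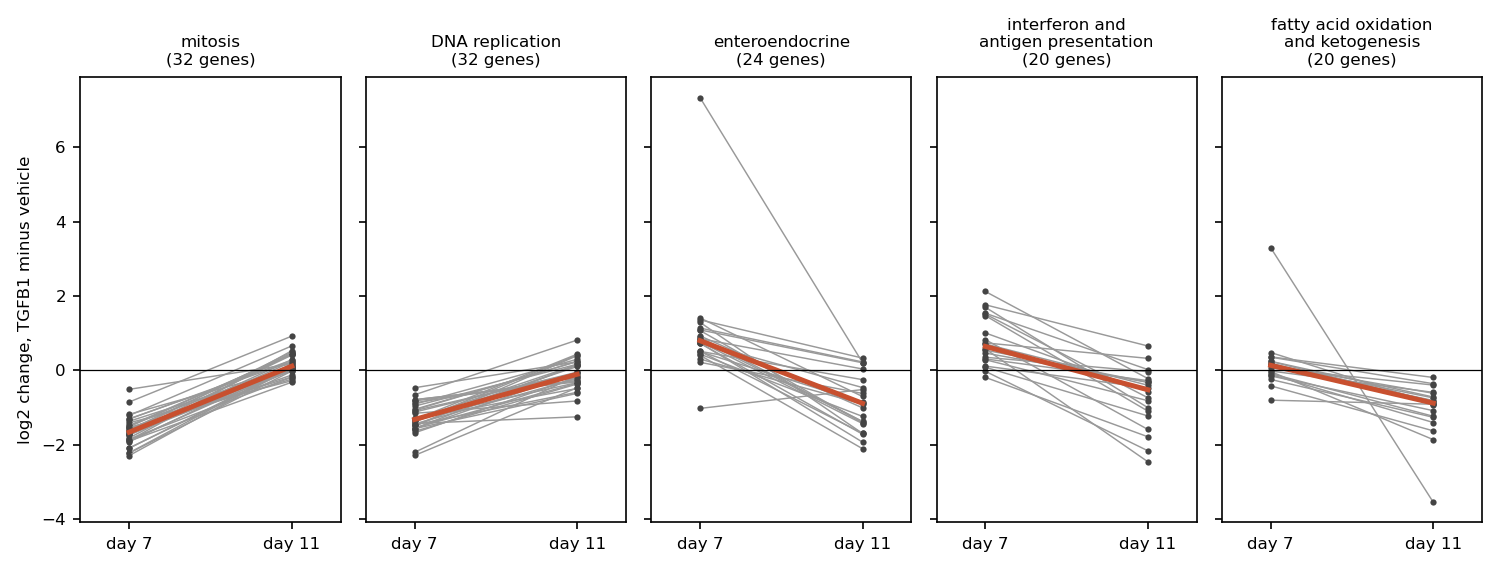
Log2 change with TGFB1 (vertical axis) of each gene tested at both times, joined from day 7 to day 11, for 5 gene lists, with the line of the medians in red. Mitosis and replication genes lie below 0 at day 7 and near 0 at day 11, and hormone, antigen presentation and fat oxidation genes go from mostly above 0 to mostly below it.

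Of 17 genes for inhibitors and D and E cyclins of the cell cycle, 7 were higher and 6 lower. Cdkn2a, the Ink4a/Arf locus, was at 0.229, 0.513 and 0.511 FPKM with vehicle and 9.34, 7.05 and 7.19 FPKM with TGFB1 (log2 change 2.64 ± 0.14 SE, adjusted p 2.86e-07), and its groups lay far apart. Cdkn2b, the p15 inhibitor and a direct TGFB target, rose from 18.9 ± 2.25 to 38.7 ± 2.56 FPKM. Cdkn1a, which encodes p21, was at 129, 154 and 170.1 FPKM with vehicle and 149, 149 and 132 FPKM with TGFB1, values that overlapped (adjusted p 0.628). Of 22 tested p53 targets 15 were higher and 3 lower (median 0.46), including Mdm2, the ubiquitin ligase of p53 (from 18.5 ± 0.533 to 42.9 ± 0.372 FPKM), and Plk2, a kinase of the stress response (from 5.49 ± 0.362 to 27.8 ± 3.64 FPKM). Sesn1, a sestrin, fell from 17.1 ± 0.598 to 5.7 ± 0.562 FPKM.

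Immune genes of the epithelium fell into a lower and a higher set. Of 21 tested interferon and antigen presentation genes 14 were lower and 3 higher (median -0.47 beside 0.74 at day 7). Psmb9, an immunoproteasome subunit, was at 14.4, 18.6 and 14.4 FPKM with vehicle and 2.62, 1.66 and 1.88 FPKM with TGFB1 (log2 change -2.46 ± 0.14 SE, adjusted p 5.4e-07). The peptide transporter gene Tap1 fell from 8.34 ± 0.342 to 3.00 ± 0.335 FPKM, and H2-T3, a nonclassical class I gene of gut epithelium, fell from 17 ± 0.842 to 3.03 ± 0.187 FPKM. Class I genes are near-identical copies, so single members are uncertain. Psmb9 had risen at day 7 (from 6.85 ± 1.08 to 10.6 ± 0.75 FPKM, difference -3.04 ± 0.18 SE, adjusted p 1.18e-08). In the list, 23 of 23 genes had a lower effect at day 11 than at day 7, beside 33.0% of all genes tested. Cytokines and chemokines went the other way: of 28 listed, 16 were tested, 13 of them higher and 2 lower (median 1.14). Some of the higher ones, such as Il33 and Csf2, averaged under 1 FPKM with vehicle. These passed the filter only through the TGFB1 libraries, so the counts and the median describe only the tested genes. Il33, an alarmin, was at 0.388, 0.612 and 0.321 FPKM with vehicle and 11.3, 11.1 and 10.7 FPKM with TGFB1 (log2 change 3.07 ± 0.11 SE, adjusted p 3.86e-08). Cxcl16 rose from 28.1 ± 5.01 to 77.3 ± 5.49 FPKM and Csf2, the growth factor GM-CSF, from 0.293 ± 0.242 to 3.99 ± 0.355 FPKM. The falls were those of Ccl25, the chemokine that draws lymphocytes to the small intestine (348, 378 and 436 FPKM with vehicle, 74.2, 74.4 and 75.5 FPKM with TGFB1, log2 change -2.35 ± 0.10 SE, adjusted p 9.35e-08), and of Tnfsf10, the death ligand TRAIL (from 13.2 ± 2.59 to 0.831 ± 0.233 FPKM). Of 14 tested TNF receptor genes 9 were higher and 3 lower, led by Tnfrsf11b, the decoy receptor osteoprotegerin (from 1.32 ± 0.362 to 18.4 ± 4.55 FPKM), and Tnfrsf12a, the receptor of TWEAK (from 51.6 ± 8.7 to 149 ± 10.0 FPKM). Pigr, the carrier of IgA across the epithelium, fell from 1103 ± 60.4 to 336 ± 23.8 FPKM.

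Nuclear genes of oxidative phosphorylation were lower in 53 of 71 tested cases (median -0.47 beside -0.34 at day 7). Ndufa6, of complex I, was at 592 ± 60.1 FPKM with vehicle and 216 ± 15.9 FPKM with TGFB1. Cytosolic ribosomal protein genes were lower in 52 of 70 and higher in 7 (median -0.65 beside -0.38 at day 7). They share reads with many pseudogenes and are uncertain. The summed FPKM of a library, which these abundant genes weigh on, was 470400 to 530773 in the vehicle and 447728 to 473933 in the TGFB1 group, ranges that overlap because vehicle replicate 1 lay below TGFB1 replicate 2. With equal sums 47 of the ribosomal genes were still lower. Genes of the unfolded protein response, the stress response of the endoplasmic reticulum, were higher in 14 of 22 cases and lower in 1 (median 0.45 beside -0.29 at day 7), for example the chaperone-like gene Creld2 (from 13.6 ± 1.42 to 30.1 ± 0.315 FPKM). Of 20 hypoxia genes 8 were lower and 1 higher (median -0.85 beside -0.90 at day 7). The largest fall was that of Ndufa4l2, a mitochondrial protein induced by low oxygen (25.3, 31.7 and 28 FPKM with vehicle, 0.675, 2.35 and 0.134 FPKM with TGFB1, log2 change -3.98 ± 0.41 SE, adjusted p 0.000469). Among the genes with the largest falls in mean FPKM were Lgals2, a galectin (from 10672 ± 2051 to 4037 ± 412 FPKM), Prap1, a secreted protein of the gut (from 2539 ± 626 to 664 ± 60.7 FPKM), and Smim24, a small membrane protein (from 1957 ± 338 to 367 ± 13.1 FPKM).

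Compared with the end of the exposure at day 7, the higher genes overlapped more than the lower ones in these lists of different length. At day 7, 35.8% of 11258 tested genes were called higher and 39.7% lower, and the change passed 2-fold upward in 877 genes (7.79%) and downward in 607 (5.39%). The vehicle libraries of the day 7 and day 11 comparisons are different samples in separate tables. Of the 651 genes at least 2-fold higher at day 11, 366 (56.2%) were so at day 7, which is 41.7% of the day 7 list. A further 135 were called higher at day 7 under 2-fold, 36 were not called, 44 were called lower and 70 were below the filter there. Of the 923 genes at least 2-fold lower at day 11, 127 (13.8%) were so at day 7, which is 20.9% of the day 7 list. Another 373 were called lower under 2-fold, 183 were not called, 172 were called higher and 68 were below the filter. Seen from day 7, 121 of the 877 higher genes and 197 of the 607 lower ones were no longer called at day 11, and 73 and 106 had turned to the opposite call. The difference of the effects was called for 3607 genes as higher at day 11 and for 3780 as lower, and with equal sums per library for 5121 and 2435 (median difference over all genes 0.25).

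**Figure D5:**
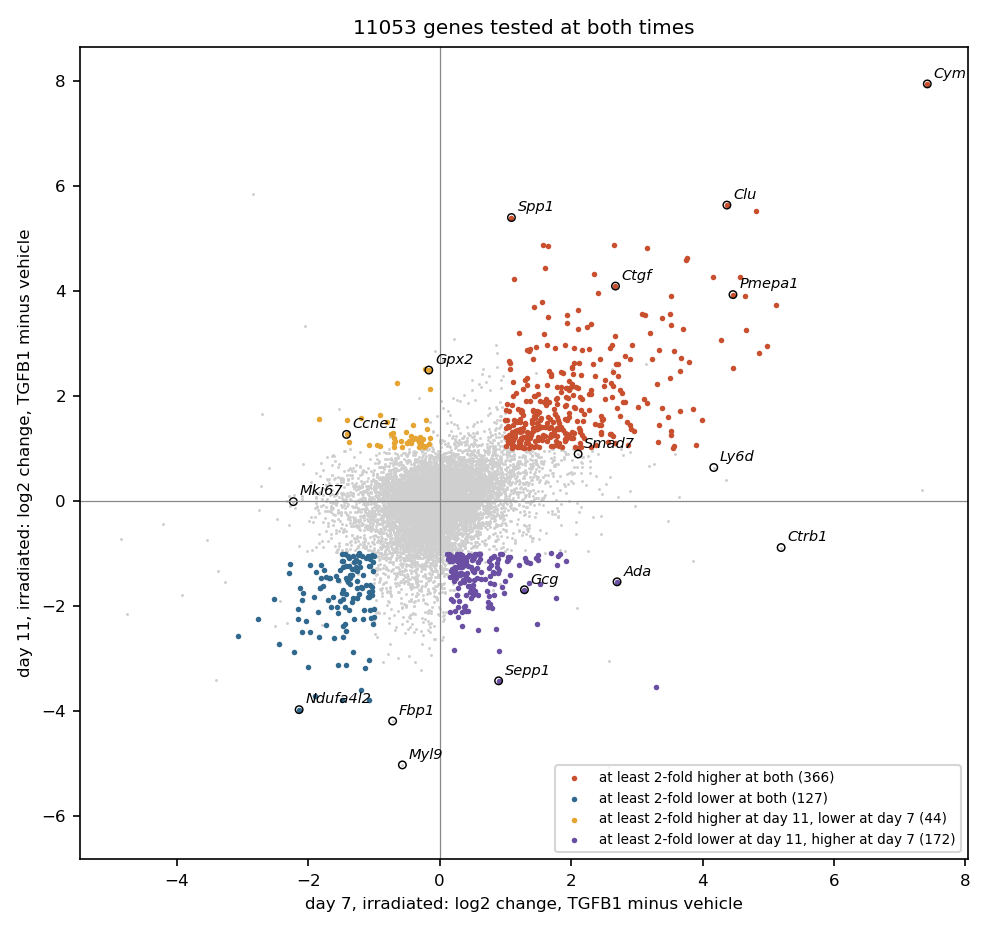
Log2 change with TGFB1 at day 11 (vertical axis) against day 7 (horizontal axis) in irradiated organoids for the 11053 genes tested at both times, with 4 classes of called genes in colour. The 366 genes at least 2-fold higher at both times fill the upper right corner, and the 172 genes at least 2-fold lower at day 11 that were higher at day 7, such as Ada and Sepp1, lie at the lower right.

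Other signalling and transport lists had smaller or mixed changes. Of 18 tested Wnt genes 8 were higher and 4 lower, and Nkd1, a feedback inhibitor of the pathway, rose from 0.439 ± 0.17 to 4.07 ± 0.226 FPKM. Of 13 tested EGF family genes 6 were higher and 3 lower, with Egfr, the receptor itself, rising from 10.5 ± 0.515 to 19.4 ± 1.4 FPKM and its inhibitor Errfi1 from 24.6 ± 1.96 to 61.8 ± 7.22 FPKM. In the Notch list 3 of 12 tested genes were higher and 4 lower, and none of them passed 2-fold. Of 18 tight junction genes 6 were higher and 5 lower. Cldn4 rose from 153 ± 26.5 to 307 ± 39.3 FPKM, while Cldn15, the claudin that forms sodium pores in small intestine, fell from 301 ± 27.6 to 101 ± 8.83 FPKM. Of 17 tested genes of carbonic anhydrases, aquaporins and ion transport, 11 were lower and 3 higher (median -0.66), Aqp1, a water channel, falling from 139 ± 7.01 to 27.7 ± 3.06 FPKM. Of 17 amino acid and peptide transporter genes 8 were lower and 5 higher: Slc1a1, a glutamate carrier, fell from 18.7 ± 0.133 to 2.52 ± 0.712 FPKM and Slc7a11, the cystine carrier, rose from 1.91 ± 0.45 to 5.18 ± 0.42 FPKM. Nox1, the superoxide-forming oxidase of gut epithelium, was at 0.775, 0.525 and 1.18 FPKM with vehicle and 12.6, 13.3 and 13.1 FPKM with TGFB1 (log2 change 2.96 ± 0.13 SE, adjusted p 1.24e-07). Its 3 TGFB1 libraries were nearly level. Of 11 tested gasdermin and cell death genes 3 were higher and 5 lower, among the latter Casp1, the inflammasome caspase (from 64.7 ± 5.83 to 31.4 ± 3.3 FPKM).

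Outside the lists, the largest rises by the rule for named genes included Sptssb, a small subunit of serine palmitoyltransferase (0.858, 0.504 and 1.1 FPKM with vehicle, 45.1, 54.9 and 48.7 FPKM with TGFB1, log2 change 4.80 ± 0.13 SE, adjusted p 1.55e-08), Slc4a11, a membrane transporter (from 0.569 ± 0.328 to 37.8 ± 8.55 FPKM), and Wfdc18, a secreted WAP-domain protein (from 0.0858 ± 0.149 to 30.6 ± 5.14 FPKM). Among the largest falls were C1rl, a complement-like serine protease (14.2, 12.8 and 16.7 FPKM with vehicle, 0.223, 0.272 and 0.328 FPKM with TGFB1, log2 change -3.60 ± 0.11 SE, adjusted p 2.31e-08), Pbld1 (from 25.3 ± 3.04 to 0.874 ± 0.166 FPKM), Adck3, a kinase-like protein of coenzyme Q synthesis (from 61.6 ± 2.27 to 5.95 ± 0.252 FPKM), and Sycn, a protein of secretory granules (from 134 ± 24.6 to 9.31 ± 2.69 FPKM). The rule took only genes whose groups did not overlap.

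Several genes had effects that differed widely between the 2 times. Ada, adenosine deaminase, was at 25.1, 35.7 and 54.4 FPKM with vehicle and 10.5, 11.5 and 13.8 FPKM with TGFB1 at day 11 (log2 change -1.55 ± 0.28 SE, adjusted p 0.00367), after a rise from 47.4 ± 2.25 to 313 ± 10.9 FPKM at day 7 (difference -4.25 ± 0.31 SE, adjusted p 1.01e-06). Its vehicle libraries ran unevenly but all above the TGFB1 libraries. Rras, a small GTPase, was at 160.1, 216 and 201 FPKM with vehicle and 94, 91.8 and 72.7 FPKM with TGFB1 at day 11, and had risen from 68.7 ± 5.13 to 262 ± 14.8 FPKM at day 7 (difference -3.07 ± 0.16 SE, adjusted p 4.06e-09). Ctrb1, the pancreatic chymotrypsinogen, had risen from 70.4 ± 5.91 to 2612 ± 108 FPKM at day 7 and was at 15.5, 19 and 33.6 FPKM with vehicle and 11.1, 10.6 and 11.7 FPKM with TGFB1 at day 11, where the call was lost when any 1 of the TGFB1 replicates was left out (difference -6.09 ± 0.30 SE, adjusted p 4.84e-08). Cym, the gastric protease prochymosin of young animals, stayed high: 0, 0.304 and 0.575 FPKM with vehicle and 389.5, 253 and 303 FPKM with TGFB1 at day 11 (log2 change 7.94 ± 0.20 SE, adjusted p 1.05e-07), and from 0.294 ± 0.208 to 223 ± 53 FPKM at day 7. Myl9 differed through its vehicle libraries, which stood at 3.75 ± 0.992 FPKM at day 7 and at 75.2 ± 19.6 FPKM at day 11 in the separately scaled tables (difference of the effects -4.47 ± 0.30 SE, adjusted p 1.35e-07). In the opposite direction, the histone gene Hist1h4i went from 1.61 ± 0.588 to 6.53 ± 1.47 FPKM at day 11 after a fall from 9.63 ± 1.11 to 3.03 ± 0.785 FPKM at day 7 (difference 2.94 ± 0.25 SE, adjusted p 3.99e-07). The small nucleolar RNAs Snora23 (difference 3.39) and Snora34 (-8.20) had large differences too, but FPKM of such short RNAs are uncertain.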

How the data were processed

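Bulk RNA was measured in 3 vehicle and 3 TGFB1 libraries, extracted with RNeasy Micro columns per the labels' protocols. The values are FPKM per gene, deposited by the authors in 1 table per time point. The submitters' processing notes name FastQC 0.11.3, TopHat2 2.1.0, Cuffnorm 2.2.1, STAR 2.7.10a and Salmon 1.4 among the tools for all assays, and builds mm9, GRCm39 and mm39, without roles. How the libraries were scaled to each other is therefore not known. Where FPKM are divided by a library's total, an abundant gene that rises lowers the others. Scaling the libraries by their median ratio gave a median log2 change at day 11 of 0.00377, beside 0.0137 in the main test. No read counts were used, and depth is unknown. Genes averaging 1 FPKM or more were tested as log2(FPKM + 1) in limma 3.58.1 (R 4.3.3, trend and robust settings) with Benjamini-Hochberg adjustment. A gene was called at adjusted p under 0.05. The day 7 comparison used its own table, and the difference between the days was an interaction term over both. The code was tested on simulated data. Named genes were those called with the largest log2 changes (12 each way, groups not overlapping, at least 10 FPKM in the higher group), the largest differences in mean FPKM (8 each way), the largest differences between the days (6 each way), the largest opposite calls (3 each way), a fixed panel of 9, and up to 6 of the largest changes in each list with the defining members that did not pass. Alox5, Alpi, Apoa1, Apoa4, Apob, Arg1, Bcmo1, Bdh1, Cck, Cd68, Cdh1, Cdkn1a, Col4a1, Cyr61, Hk2, Hnf4a, Hnf4g, Krt18, Krt8, Ly6d, Ly6e, Muc2, Slc2a1, Slc2a5, Sst, Tgfb1, Tgm2 and Yap1 fall outside that rule and were chosen after their values were seen. Some genes that the rule names are not reported here. The members and lists were chosen with earlier results of these data known. Alternatives covered pseudocount, filter, normalization, threshold, limma settings, single libraries, a replicate block and, for day 11, all 18 bulk RNA libraries in 1 fit. No member's promoter was read from a genome: windows came from RefSeq tables (GRCm38.p6), matched by symbol.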

Additional observations from a re-analysis of the deposited data

Results flagged for a closer look

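The test of whether the TGFB1 effect in irradiated organoids differed between day 11 and day 7 called 7387 genes in limma, and the differences named in the report are collected here as day 11 minus day 7 differences of log2 changes. The effect was higher at day 11 for Isx (5.43), Krt4 (5.29), Efemp1 (4.38), Spp1 (4.30), Rbp7 (3.76), Snora23 (3.39), Hist1h4i (2.94), Ccne1 (2.68), Gpx2 (2.65), Olfm4 (2.39), Mki67 (2.21) and Ly6a (1.63). It was lower at day 11 for Snora34 (-8.20), Ctrb1 (-6.09), Myl9 (-4.47), Sepp1 (-4.33), Ada (-4.25), Rras (-3.07), Tgfb1 (-3.06), Psmb9 (-3.04), Gcg (-2.99), Chgb (-2.67), Bach1 (-1.93) and Smad7 (-1.22). These 24 genes were chosen for size of the difference or as members of the lists described, and all 24 kept their call under every alternative run. The day of collection and the table in which the libraries were deposited cannot be told apart.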

How the results depend on the processing

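Leaving out each of the 6 day 11 libraries in turn gave 6464 to 7591 genes called at day 11, 3192 to 3887 higher and 3261 to 3704 lower, with 606 to 686 at least 2-fold higher and 869 to 978 at least 2-fold lower. For the difference between the days, over 12 libraries left out in turn, the ranges were 6937 to 7715 called, 3365 to 3801 higher and 3561 to 3914 lower, with 759 to 831 and 1044 to 1160 past 2-fold. A pseudocount of 5 FPKM, which shrinks the changes of low genes, gave 301 genes at least 2-fold higher and 447 lower at day 11 (651 and 923 in the main test), and 376 and 590 for the difference (783 and 1097). A minimum mean of 5 FPKM, which tests fewer genes, left 416 genes at least 2-fold higher at day 11. With equal sums per library, chosen after seeing the data, the difference was called lower for 2435 genes (3780 in the main test) and at least 2-fold higher for 1514, and the cause was not tested. Replicate numbers did not pair the libraries (correlations of same-numbered deviations -0.0856, -0.0252 and 0.0947), and a replicate block called 7351 genes at day 11 and 7396 for the difference, against 7335 and 7387 without it. With the block 7 named genes were no longer called at day 11, among them Krt20 (adjusted p 0.0557), Ly6d (0.0996), Lyz2 (0.104) and Slc2a1 (0.0818) of those described. Of 357 named genes called at day 11, 333 kept their call under every alternative in which they were tested. Genes with a mean under 5 FPKM were not tested at that filter. The 13 values that changed sign all belonged to genes not called in the main test. On the log2 scale, Apoa1 (-0.07) was at 0.203 with quantile normalization, 0.0757 with equal sums and between -0.409 and 0.31 leaving out single libraries. Apoa4 (0.16) was at between -0.0813 and 0.482 leaving out single libraries, and was called without vehicle replicate 3. Cdkn1a (-0.07) was at 0.0595 with quantile normalization, 0.0773 with equal sums and between -0.174 and 0.0252 leaving out single libraries. Mki67 (-0.02) was at 0.0185 with quantile normalization, 0.123 with equal sums and between -0.111 and 0.117 leaving out single libraries. Tgfb1 (-0.09) was at 0.0409 with equal sums and between -0.191 and 0.000917 leaving out single libraries. The depth is not given by FPKM, so genes near 1 FPKM rest on an unknown number of reads.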
